A study of Sus scrofa with 12 samples.

Results

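The genes described here make cholesterol and fatty acids: the enzymes from acetyl-CoA to squalene, those from squalene to cholesterol, the enzymes that build, lengthen and desaturate fatty acids, and the regulators of both branches. With earlier results of these data known, they were chosen by name from a list of 31 symbols that stand for 28 genes. Of these, 19 had at least 1 probe set with a single gene symbol on the porcine array, among 6765 genes named there, and 17 were measured, meaning that the brightest probe set exceeded a log2 value of 4 in at least 6 of 12 sows. SREBF1 lay between 2.02 and 2.13 and ACACA between 2.23 and 2.32 in all sows, near the floor of the scale, and neither was tested; for ACACA this is the brighter of 2 probe sets. LSS, IDI1, MVD, MVK, PMVK, DHCR7, EBP, STARD4 and ACLY were not analysed here.

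The ovaries came from 12 sows of an F2 cross between Iberian and Meishan pigs, all killed on day 30 of pregnancy. By the labels, 6 sows had a higher and 6 a lower estimated breeding value for prolificacy, and these are the high and low groups. They differ in no other labelled respect, and each sow has 1 array whose sample is described as an average of her right and left ovary. Values are log2 expression values after GCRMA, a background correction and normalization, so a difference of 1 is 2-fold. Because whole ovaries were measured, fewer cells of a type and less RNA per cell cannot be told apart. Levels of different probe sets are not on a shared scale, so each gene is compared only with itself in other sows.

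The ovary of a pregnant sow is dominated by corpora lutea, which make progesterone from cholesterol. Luteal cells take cholesterol from lipoproteins and also synthesise it in a long chain of enzymes in the cytosol and endoplasmic reticulum. Transcription of the chain is set by the SREBP proteins, membrane-bound transcription factors that SCAP escorts to the Golgi when sterol is scarce and that INSIG proteins hold back when it is plentiful. SREBP proteins also drive fatty acid synthesis and the supply of NADPH for it. Luteal markers were bright in every sow: STAR, which moves cholesterol into mitochondria, had medians of 14.68 among high and 14.60 among low prolificacy sows, and CYP11A1, which cleaves the side chain of cholesterol, 13.64 and 13.59.

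No gene of the list differed between high and low prolificacy past the threshold, but the genes varied widely between sows and did so together. High 3 held the lowest value of all 12 sows in 16 of the 17 measured genes, and low 2 the highest in 10. With limma and Benjamini-Hochberg adjustment 0 of 17 genes passed an adjusted p of 0.05, where the share over all 13390 probe sets tested was 0%. At an unadjusted p under 0.05 there was 1 of 17, against 5.64% of all probe sets. The groups overlapped in 17 of 17 genes, and in all but 0.471% of all probe sets. High minus low differences were above 0 in 5 genes and below 0 in 12, with a median of -0.15, where 43.6% of 5079 genes tested were above 0 and their median was -0.027. That direction rested on high 3: without this sow 12 of 17 differences were above 0 and the median was 0.16.

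**Figure D1:**
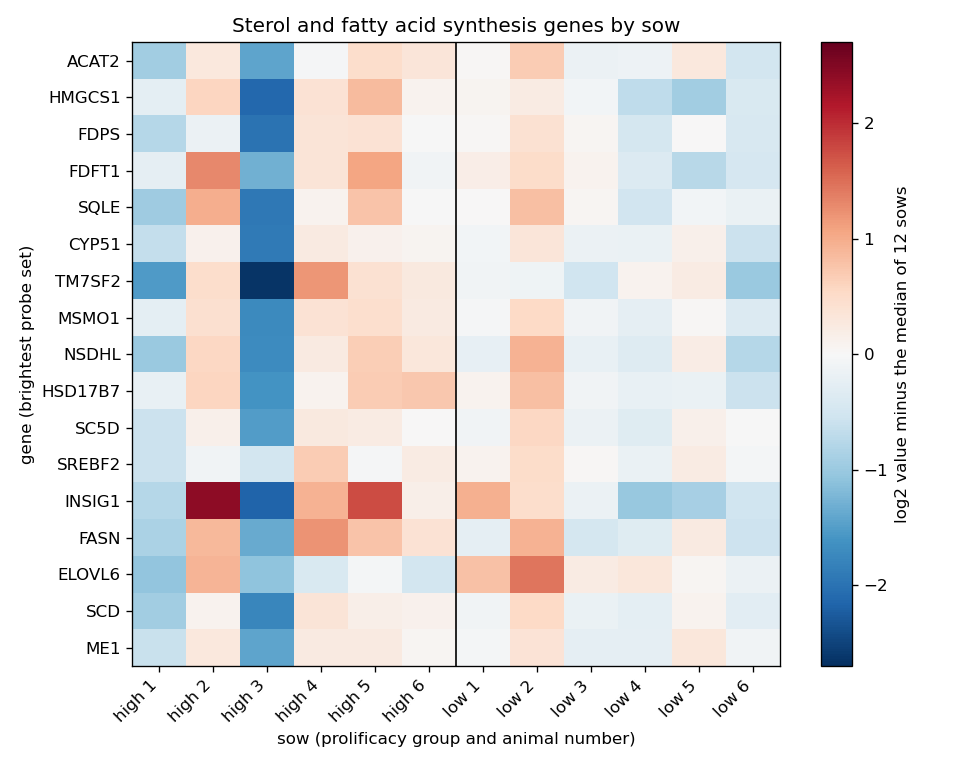
Each cell is the log2 value of a gene minus its median over 12 sows, with genes in rows and sows in columns and a line between the high and low groups. High 3 lies below the median in 17 of 17 genes and high 1 does too, while low 2 lies above it in 16.

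The early part of the chain condenses acetyl-CoA units and ends in squalene, and 4 of its genes were measured. ACAT2, the cytosolic thiolase that joins a pair of acetyl-CoA units, ran from 9.34 over a median of 10.89 to 11.24 in the high group, and from 10.27 over 10.71 to 11.46 in the low group. High 3 and high 1 were the low values, and the other sows of both groups shared a range. The difference was -0.25, with a 95% interval from -0.96 to 0.46 (limma adjusted p = 0.962), and -0.010 without high 3. A dimmer ACAT2 probe set followed the brighter one closely over the sows (r = 0.987, n = 12) and had a difference of -0.42.

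HMGCS1, which adds the next acetyl unit to form HMG-CoA, had the widest range of the early enzymes. It ran from 10.86 over a median of 13.21 to 13.82 in high prolificacy sows and from 12.02 over 12.73 to 13.19 in low prolificacy sows. In the high group 4 sows were above 13 and high 3 was 1.86 below the next sow of its group, so that the group both began lower and ended higher than the low group. Its mean of 12.89 ± 1.07 (SD, n = 6) against 12.67 ± 0.455 gave a difference of 0.22 (limma adjusted p = 0.985). Without high 3 that difference was 0.63.

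FDPS, farnesyl diphosphate synthase, makes the branch point isoprenoid from which sterols, prenyl groups and ubiquinone derive. Its values were 10.90, 12.82 and 13.29 (lowest, median, highest) in high and 12.42, 12.92 and 13.31 in low prolificacy sows. Apart from high 3 and high 1 all sows lay within the low group's range. The difference of -0.30 (limma adjusted p = 0.953) became 0.031 without high 3. FDFT1, squalene synthase, which commits farnesyl units to sterols, ran from 10.08 over 11.51 to 12.68 against 10.65 over 11.26 to 11.89. Here high 2 and high 5 stood above every low prolificacy sow and high 3 below. The FDFT1 difference was 0.31 (limma adjusted p = 0.961), and it was 0.082 without high 2 and 0.60 without high 3.

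The later part of the chain turns squalene into cholesterol, and 7 of its genes were measured, with 1 difference above 0 and 6 below. SQLE, squalene epoxidase, an oxygen-dependent control point of the pathway, had values of 8.69, 10.66 and 11.61 among high and 10.10, 10.60 and 11.44 among low prolificacy sows. The medians nearly coincided while the high group reached further to both sides, with high 3 and high 1 lowest and high 2 highest. The difference was -0.20 and its 95% interval reached from -1.14 to 0.75 (limma adjusted p = 0.985). CYP51, the demethylase of lanosterol, named CYP51A1 in humans, ran from 10.95 over 12.96 to 13.11 against 12.29 over 12.75 to 13.20. High 3 was the only sow under 12, and the difference of -0.25 was 0.064 without it.

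TM7SF2, a sterol reductase that acts after CYP51, spread most among the enzymes. Its values were 8.08, 11.06 and 11.91 in the high group and 9.72, 10.61 and 10.93 in the low group. In high prolificacy sows they fell apart into high 3 and high 1, at 8.08 and 9.20, and 4 sows from 10.99 to 11.91, so the whole low group lay between the extremes of the high group. From lowest to highest sow this was 3.83 log2 units, or 14.3-fold. The group means were near each other, 10.42 ± 1.46 and 10.48 ± 0.452, a difference of -0.064 (limma adjusted p = 0.993).

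MSMO1, NSDHL and HSD17B7 act together on the methyl groups of the sterol ring, as oxidase, decarboxylating dehydrogenase and ketoreductase. MSMO1 ran from 11.80 over 13.83 to 13.98 among high and from 13.14 over 13.46 to 14.06 among low prolificacy sows, with high 3 far below all others. NSDHL ran from 6.63 over 8.61 to 9.0 and from 7.57 over 8.12 to 9.28. HSD17B7, which can also reduce oestrone to oestradiol, ran from 8.50 over 10.44 to 10.82 and from 9.52 over 9.97 to 10.92. In each of these genes the high group had the higher median and also the lowest sow, high 3, and low 2 was the highest sow of the 12. Their differences were -0.048, -0.085 and 0.065, with limma adjusted p values from 0.99 to 0.991. A dimmer NSDHL probe set gave 0.22 and a dimmer MSMO1 probe set -0.32.

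SC5D, a desaturase near the end of the chain, had values of 10.02, 11.61 and 11.80 among high and 11.21, 11.48 and 12.10 among low prolificacy sows. High 3 and high 1 lay under the low group's range and the other 4 high prolificacy sows within it. Its difference was -0.26, with a 95% interval from -0.88 to 0.36 (limma adjusted p = 0.947), and -0.0063 without high 3.

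**Figure D2:**
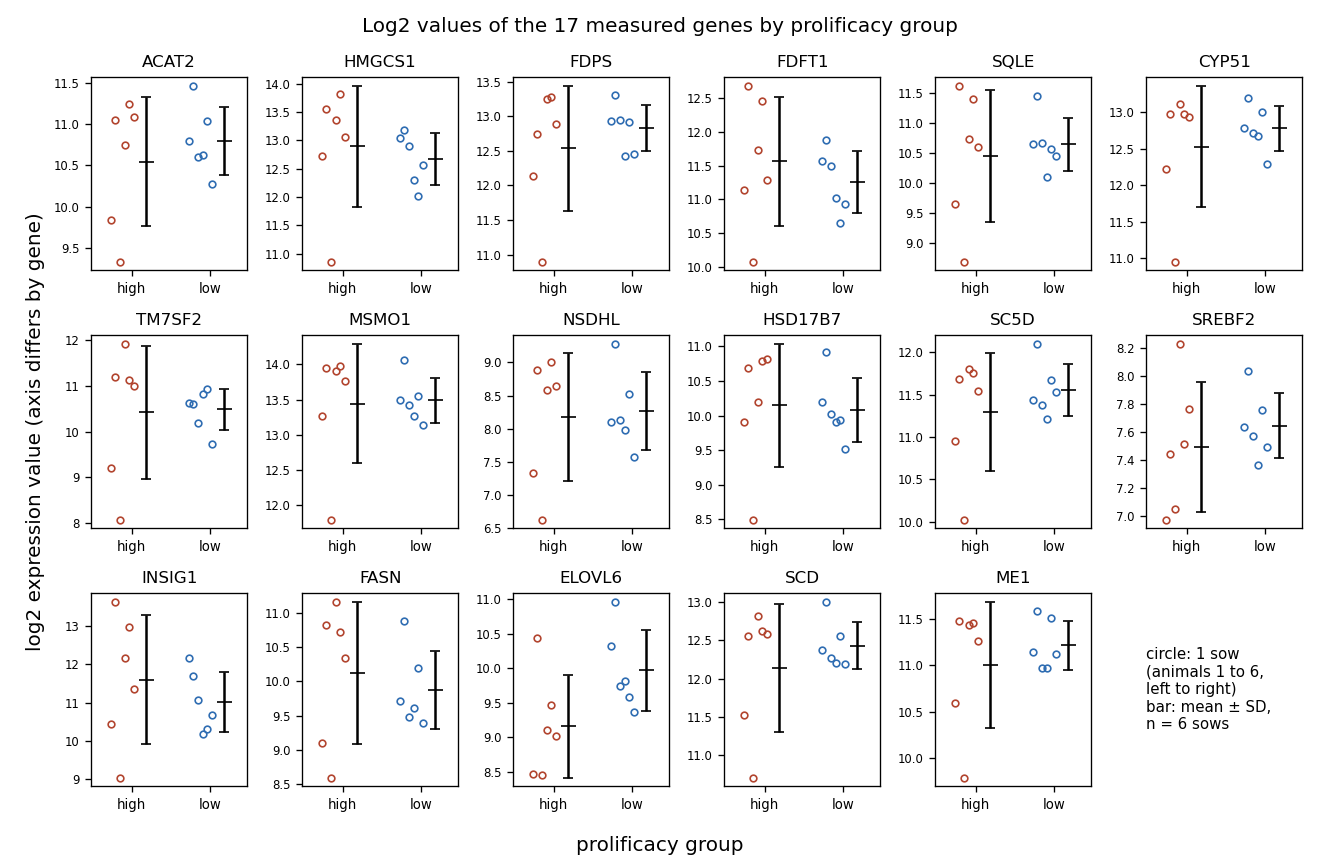
Each panel shows the log2 values of a gene in 6 high and 6 low prolificacy sows as circles, with the mean and SD beside them, and each panel has its own vertical axis. The high group has the larger SD in 17 of 17 genes, with 1 or 2 sows far below the others in most panels.

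Of the regulators, SREBF2 encodes the SREBP protein that chiefly drives cholesterol genes, and INSIG1, itself a target of SREBP, encodes the protein that retains the complex in the endoplasmic reticulum. SREBF2 varied least of all 17 genes, with an SD over 12 sows of 0.36. It ran from 6.97 over 7.48 to 8.23 in the high group and from 7.37 over 7.61 to 8.04 in the low group, with high 1 and high 3 lowest and high 4 highest. The difference was -0.15 (limma adjusted p = 0.962). It was -0.044 without high 1, -0.060 without high 3, -0.070 without low 2 and -0.30 without high 4. The other 3 SREBF2 probe sets stayed under 4 in all sows.

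INSIG1 varied most, with an SD of 1.29 that exceeded the SD of 99.3% of the 5079 genes. Its values were 9.05, 11.76 and 13.62 in the high group and 10.19, 10.86 and 12.16 in the low group. From high 3 to high 2 the range was 4.57 log2 units, 23.8-fold. High 2 and high 5 lay above every low prolificacy sow and high 3 below, with the rest intermixed. The difference of 0.59 had a 95% interval from -0.88 to 2.06 (limma adjusted p = 0.95), and leaving out a sow moved it between 0.18 (high 2) and 1.10 (high 3). A dimmer INSIG1 probe set, from 2.57 in high 3 to 7.82 in high 5, had a difference of 0.31 and a correlation of 0.950 with the brighter one over the 12 sows.

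In the fatty acid branch, FASN, the synthase that builds palmitate, ran from 8.60 over 10.54 to 11.16 in the high group and from 9.39 over 9.67 to 10.89 in the low group. In the high group 4 sows lay at 10.35 or above, where the low group had only low 2, and high 3 and high 1 lay below all low prolificacy sows. The difference was 0.25 (limma adjusted p = 0.981), 0.039 without high 4 and 0.55 without high 3. A dimmer FASN probe set gave 0.36. SCD, which makes oleate from stearate, had values of 10.70, 12.57 and 12.82 against 12.19, 12.32 and 13.00. As in SC5D, high 3 and high 1 lay under the low group's range, and its difference of -0.30 (limma adjusted p = 0.948) was -0.011 without high 3. ME1, the cytosolic malic enzyme that supplies NADPH, ran from 9.79 over 11.35 to 11.48 against 10.97 over 11.13 to 11.58. Its difference was -0.21 (limma adjusted p = 0.961), and 0.029 without high 3.

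ELOVL6, which lengthens palmitate to stearate, had the smallest p of the 17 genes. Its values were 8.45, 9.06 and 10.44 in the high group and 9.37, 9.78 and 10.96 in the low group. High 2 was the only high prolificacy sow above 10, while 4 of 6 were below the lowest low prolificacy sow, and the groups overlapped. Means of 9.16 ± 0.741 and 9.97 ± 0.58 (SD, n = 6 each) gave a difference of -0.81 (1.75-fold lower in high) with a 95% interval from -1.56 to -0.054, an unadjusted p of 0.0376 and an adjusted p of 0.851 in limma. It stayed below 0 with each sow left out, from -1.07 without high 2 to -0.61 without low 2. The 3 dimmer ELOVL6 probe sets had differences of -0.28, -0.49 and -0.60 with limma adjusted p values from 0.929 to 0.962, and the mean of all 4 differed by -0.54.

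**Figure D3:**
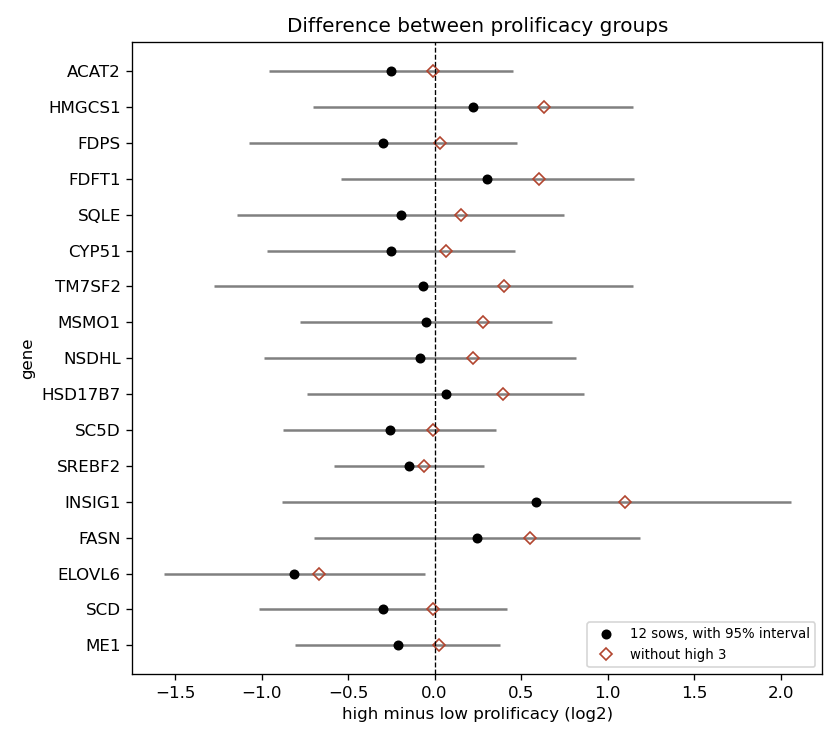
Filled points are high minus low differences in log2 units with their 95% intervals from limma over 12 sows, and open diamonds are the same differences without high 3. Intervals include 0 in every gene but ELOVL6, and 12 of 17 diamonds lie above 0.

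Variation between sows exceeded that of most genes tested, which were not matched to the 17 genes for brightness. The SD over 12 sows had a median of 0.676 over the 17 genes, from 0.36 in SREBF2 to 1.29 in INSIG1, against a median of 0.267 over 5079 genes, and 17 of 17 were above that median. All 17 had a larger SD in the high than in the low group, as did 75.2% of all genes. Without high 3 it was 14 of 17 against 66.5% of all genes.

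Sow by sow, most of the genes moved together in the sows at either end, and less so in those between. High 3 had a median deviation of -1.70 from the genes' medians and was below them in 17 of 17 genes, and high 1 had -0.77 and was also below in 17. Low 6 was below in 17 genes with a median deviation of -0.44, and low 4 in 15 with -0.26. On the other side low 2 was above in 16 genes with a median deviation of 0.54, and high 2, high 4 and high 5 each in 15, with 0.48, 0.35 and 0.46. Each group thus held sows at both ends. The sows between were mixed: low 1 was below in 8 genes and above in 9, low 3 below in 12 and above in 5. High 6 was below in 4 and above in 13, and low 5 below in 5 and above in 12. In low 5 HMGCS1 deviated by -0.95 and ME1 by 0.30. Over all 5079 genes the median deviation of a sow was never more than 0.061 from 0. High 3 was the lowest sow in 17.5% of these genes and the highest in 21.7%.

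Over the 12 sows all 136 pairs of the 17 genes had a positive Pearson correlation, with a median of 0.842, a lowest of 0.357 and a highest of 0.982. In 77 pairs, 56.6%, r was above 0.8, where 1.08% of the pairs of all 5079 genes reached that value and their median was 0.028. The median r was 0.913 within the high group and 0.767 within the low group (n = 6 each), 0.726 without high 3 and 0.644 without high 1 and high 3. The share above 0.8 was then 36.8% and 22.8%, against 0.911% and 0.914% of all pairs. Within the low group 133 of the 136 pairs were positive, and the lowest r was -0.282. These values describe 12 sows that share a normalization, and the most extreme sow raised them.

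The 2 closest pairs joined a sterol enzyme with ME1 or SCD. SC5D and ME1 had r = 0.982 and rho = 0.916 (permutation p = 2e-05 and 0.00011, adjusted over the 136 pairs 0.00017 and 0.000712), and r was 0.903 without high 1 and high 3. SC5D and SCD had r = 0.979 and rho = 0.930 (permutation p = 1e-05, the smallest that the permutations can give, and 6e-05, adjusted 0.00017 and 0.000453), and 0.913 without these sows. SCD and ME1 (r = 0.976, rho = 0.860), ACAT2 and NSDHL (0.975 and 0.944), CYP51 and SCD (0.970 and 0.944) and CYP51 and MSMO1 (0.968 and 0.909) followed. Without high 1 and high 3 these 4 pairs had r from 0.864 to 0.949, and their permutation p values for r were at most 3e-05 (adjusted at most 0.000177) and those for rho at most 0.00068 (adjusted at most 0.0025). Between sterol enzymes the median r was 0.885 over 55 pairs, and between sterol enzymes and those of fatty acid and NADPH synthesis it was 0.850 over 44 pairs. Among the latter enzymes themselves it was 0.767 over 6 pairs.

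ELOVL6, FDFT1, INSIG1 and SREBF2 had the lowest median correlations with the other genes. FDFT1 and SREBF2 had the lowest correlation, r = 0.357 and rho = 0.350 (permutation p = 0.257 and 0.265, adjusted 0.257 and 0.271), and 0.298 without high 2 and high 3. SREBF2 and INSIG1 had r = 0.432 and rho = 0.413 (permutation p = 0.162 and 0.186, adjusted 0.163 and 0.193), and 0.346 without high 1 and high 4. HMGCS1 and ELOVL6 had r = 0.462 and rho = 0.336 (permutation p = 0.129 and 0.286, adjusted 0.132 and 0.29), and 0.209 without high 3 and low 5. By Pearson correlation over the 12 sows INSIG1 was most like FDFT1 (0.962) and ELOVL6 most like SQLE (0.744). The median r with the other 16 genes was 0.584 for ELOVL6, 0.696 for FDFT1, 0.714 for INSIG1 and 0.721 for SREBF2, and 0.912 for NSDHL at the other end.

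**Figure D4:**
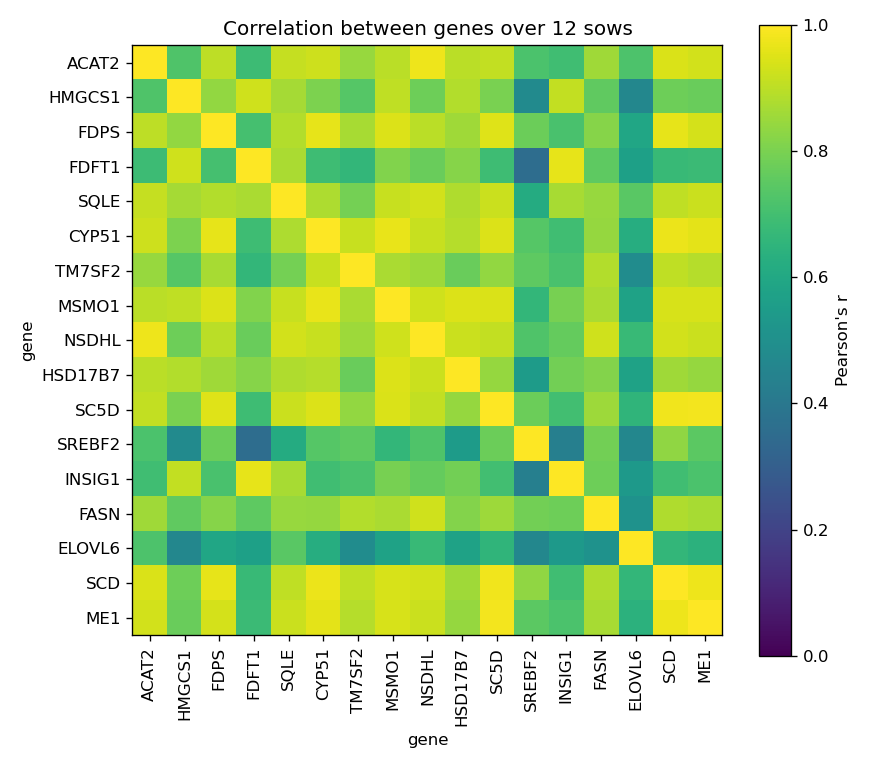
Colour gives Pearson's r between the log2 values of 2 genes over 12 sows, with genes ordered by pathway step. All 136 pairs are positive, and the darker SREBF2, INSIG1, FDFT1 and ELOVL6 rows hold the lower values, down to 0.357.

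Marker lists of several cell types varied over the sows along with these genes: luteal, endothelial and most macrophage correlations were positive, and granulosa and proliferation correlations negative. The 8 luteal markers (8 of 8 measured) had a mean log2 value from 13.06 to 13.82 among high and from 13.37 to 13.66 among low prolificacy sows, lowest in high 3. All 17 genes had a positive correlation with that mean over the sows (median r = 0.813, from 0.573 in ELOVL6 to 0.889 in SC5D), where the median over all genes was 0.015. SC5D had r = 0.889 and rho = 0.846 (permutation p = 0.00018 and 0.00087, adjusted over 153 relations 0.0142 and 0.0517), and r was 0.799 without high 3 and high 4. For the list the median r was 0.875 within the high and 0.531 within the low group, and 0.557 without high 1 and high 3.

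Granulosa markers, of which 5 of 8 were measured, had mean log2 values from 6.01 to 10.59 among high and from 7.66 to 10.26 among low prolificacy sows, and AMH, FSHR and INHBB did not pass the filter. Among them CYP19A3, an aromatase gene of the pig, ran from 3.86 in high 2 to 12.74 in high 1, with high 3 at 11.59 and low 6 at 12.40. All 17 genes had a negative correlation with CYP19A3, with a median r of -0.667, where the median over all genes was -0.018. FASN had r = -0.839 and rho = -0.776 (permutation p = 0.00088 and 0.00413, adjusted 0.0224 and 0.0517), and r was -0.810 without high 1 and low 6. Over the 17 genes the median r with CYP19A3 was -0.792 within the high and -0.542 within the low group, and -0.558 without high 1 and high 3. With the mean of the 5 granulosa markers the median r was -0.654 over the 12 sows. That value was -0.804 within the high and -0.338 within the low group, and -0.469 without high 1 and high 3. Proliferation markers, 3 of 6 measured, were highest in high 3, at 9.43. They had a median r of -0.693 with the 17 genes, where the median over all genes was 0.011. It was -0.790 within the high and -0.381 within the low group, and -0.376 without high 3 and high 4. Endothelial markers, 4 of 5 measured, had mean log2 values between 8.56 and 9.59 in high and between 8.75 and 8.98 in low prolificacy sows, lowest in high 3. All 17 genes had a positive correlation with that mean, with a median r of 0.649, where the median over all genes was 0.017. The median r was 0.715 within the high and 0.337 within the low group. It was 0.678 without high 3 and high 5, 0.559 without high 3, and 0.437 without high 1 and high 3. Macrophage markers, 3 of 6 measured, had means between 6.41 and 7.48 and between 6.38 and 7.33. Their correlation was positive in 16 of 17 genes, with a median r of 0.411, and 0.210 without high 3, against -0.094 over all genes. The part of these cells in the variation of the list was not tested.

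**Figure D5:**
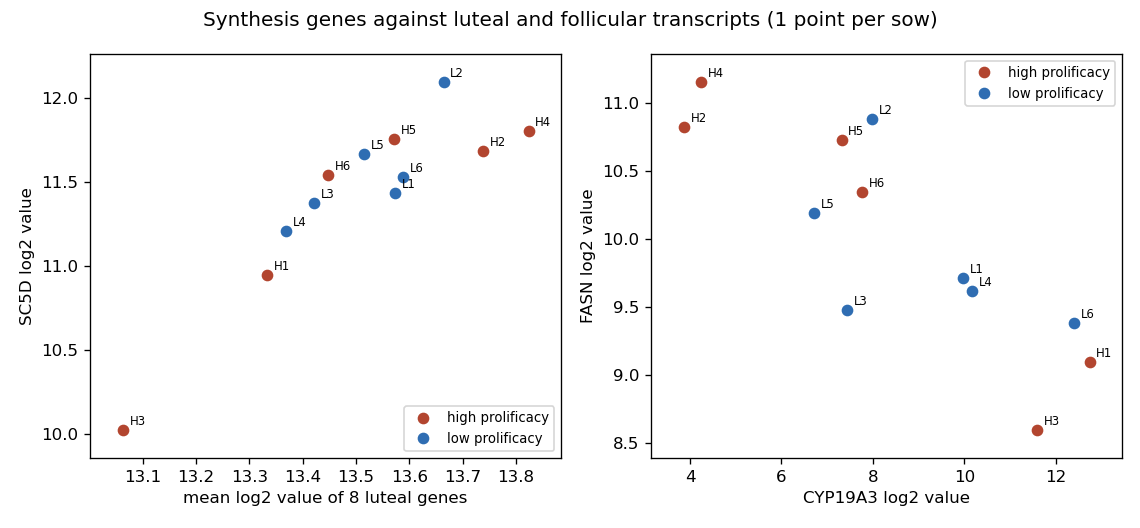
Points are sows: SC5D against the mean log2 value of 8 luteal genes on the left, and FASN against CYP19A3 on the right, both axes in log2 units, with H and L for the groups. SC5D has r = 0.889 with the luteal mean and FASN r = -0.839 with CYP19A3, and high 3 is the lowest point in both.

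RNA quality, fat cell markers and albumin were also set beside the list. The difference between the 3' and 5' probe sets of the actin control is larger where RNA is less intact. It was 2.59 ± 0.455 among high and 2.12 ± 0.126 among low prolificacy sows (SD, n = 6 each). It was lowest in high 3 at 1.95 and highest in high 2 at 3.23. All 17 genes had a positive r with it (median 0.490), where the median over all genes was -0.085. The median r was 0.808 within the high and 0.136 within the low group. With that difference as a covariate 0 of 17 genes were higher in the high group, the median difference was -0.81, and 10 of 17 had an unadjusted p under 0.05, as did 16.3% of all probe sets. The smallest limma adjusted p, of ELOVL6 and ME1, was 0.192. The part of RNA quality in the group differences was not tested beyond this. Fat cell markers that define adipocytes were near the floor, with ADIPOQ at 2.15 to 2.21 and LEP at 2.77 to 2.98, although FABP4 reached 5.78 in the low group. Of that list 2 of 7 genes were measured, LPL and PPARG, and its mean ran from 7.37 to 9.16 among high and from 7.80 to 8.33 among low prolificacy sows. Albumin, a liver transcript, exceeded 6 in 4 sows (high 5, low 1, low 3 and low 4), and without these 3 of 17 differences were above 0, with a median of -0.39.

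Other genes of sterol and fatty acid metabolism, 52 on a list of their own, had a probe set in 28 cases and were measured in 26. In limma 0 of 26 passed the adjusted threshold, 9 differences were above and 17 below 0, and the groups overlapped in all 26. ACSL1, which activates long-chain fatty acids, had the smallest p: it ran from 7.98 over 8.61 to 9.28 among high and from 9.08 over 9.44 to 10.19 among low prolificacy sows. Only high 6 of the high group lay within the low group's range. The difference was -0.81 (unadjusted p = 0.00353, limma adjusted p = 0.752), and ACSL3, a related enzyme, differed by -0.43 (adjusted p = 0.874). SCD5, a desaturase related to SCD, differed by 0.72, CYP27A1, which oxidises the cholesterol side chain, by 0.28, and PRKAA2, a catalytic subunit of AMP-activated kinase, by -0.39. OXSM differed by 0.19 and ELOVL1, which lengthens long saturated fatty acids, by -0.16. INSIG2, the relative of INSIG1, had a difference of 0.28, with high 2 at 9.72 and the highest low prolificacy sow at 8.40, and SCAP, the escort of SREBP, of -0.017. Limma adjusted p values of these genes ran from 0.899 to 0.996.

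Correlations of these genes with the list over the sows ranged from positive to negative. The median r with the 17 genes was above 0.7 in 7 of 26 and in 8.51% of the other 5062 genes. It was 0.871 for NPC1, which exports cholesterol from lysosomes, 0.856 for ACSS2, which makes acetyl-CoA from acetate, and 0.818 for IDH1, a cytosolic source of NADPH. Without high 3 these values were 0.792, 0.737 and 0.727. The lowest was -0.733 for MYLIP, a ubiquitin ligase, and -0.587 without high 3. ERLIN2, a membrane protein of the endoplasmic reticulum, had -0.684, and -0.372 without high 3. A median r below -0.4 was found in 3 of 26 genes, MYLIP, ERLIN2 and CH25H, and in 26.3% of the other genes. These genes were singled out after their correlations were seen, and the values describe 12 sows.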

How the data were processed

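Whole ovary RNA of 12 sows was hybridised to Affymetrix porcine arrays. The authors deposited 1 log2 value per probe set and sow, made with GCOS and GCRMA, per the submitters' processing notes, which give no versions. GCRMA sets dim probe sets near a common floor, so a low gene shows no differences. Values ran from 0.97 to 15.34 with array medians from 4.81 to 4.97, and no arrays were identical. Arrays carry no read depth, and their number limits the precision. Each sow is 1 replicate.

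Of 24123 probe sets, 10099 had 1 gene symbol, 198 several and 13826 none in the platform annotation, and only the first kind was named. All 35 probe sets of the listed genes matched by gene number, with 0 symbols changed. Probe sets above 4 in at least 6 sows were tested (13390, without 124 controls), and the brightest stood for each gene. High was compared with low in limma 3.58.1 under R 4.3.3 with Benjamini-Hochberg adjustment over all of them and a threshold of 0.05. Correlations had 100000 two-sided permutations (numpy 2.4.6, with ranks from scipy 1.17.1). Methods were tested on simulated data. The names of 62 porcine controls stood 21 places from their values and were moved back. This brought the mean gap between porcine and general versions of the same spike-in controls from 5.17 to 0.49 log2 units. Only the actin measure uses the moved controls.

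The genes and lists were chosen with earlier results of these data known. Genes were named by the smallest p in each of 5 roles, the largest SD, and the highest and lowest correlations, and all measured genes are given. Alternatives covered the filter, normalization, the fit, covariates and sows left out. The marker correlations and the omission of high 1 with high 3 were chosen after seeing the data.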

Additional observations from a re-analysis of the deposited data

Results flagged for a closer look

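High 3 stood far below the other high prolificacy sows in HMGCS1, at 10.86 against 12.72 in the next sow, a gap of 0.628 of the group's range. In MSMO1 it was at 11.80 against 13.27, a gap of 0.674. Both exceed the critical value of 0.625 for 6 samples (Dixon's test), which chance exceeds in about 1 in 20 groups. The same held for 2 of 17 measured genes in the high group and 0 in the low group, and for 8.01% and 8.03% of all genes.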

How the results depend on the processing

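In 26 alternatives no gene of the list passed the adjusted threshold, and the smallest limma adjusted p was 0.192. ELOVL6, SC5D, SCD and SREBF2 kept their direction in every alternative run on them, and the other 13 genes turned in at least 1. The size of 3 of the 4 was not stable: without high 3 SC5D was -0.0063 and SCD -0.011, and SREBF2 was -0.0063 with array weights. In all, 39 of 432 values turned sign, and none was called. The causes were not tested. The count of genes higher in the high group, 5, was 10 with array weights, 10 without high 2 and high 3, 3 without the sows with albumin above 6, and 0 with the actin 3' to 5' difference as a covariate. Leaving out 1 sow gave 4 to 12, a median difference from -0.29 to 0.16 (highest without high 3), and 0 to 1 probe sets past the threshold, the 1 being without low 1.

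With the actin covariate HMGCS1 was -0.48, FDFT1 -0.37, HSD17B7 -0.49, INSIG1 -0.74 and FASN -0.65. With array weights ACAT2 was 0.045, SQLE 0.012, TM7SF2 0.26, MSMO1 0.19 and NSDHL 0.24. Without high 2 and high 3 FDPS was 0.059, CYP51 0.033, TM7SF2 0.33, MSMO1 0.24 and NSDHL 0.13. Without the albumin sows HSD17B7 was -0.10 and FASN -0.15. TM7SF2 was 0.11 with albumin and 0.043 with luteal markers as a covariate, MSMO1 0.018 with luteal markers, and HSD17B7 -0.073 with granulosa markers. The mean of all NSDHL probe sets gave 0.065. With 1 sow left out CYP51 ran from -0.37 to 0.064, FDPS from -0.45 to 0.031, HSD17B7 from -0.070 to 0.40, ME1 from -0.31 to 0.029, MSMO1 from -0.15 to 0.28, NSDHL from -0.25 to 0.23, SQLE from -0.43 to 0.16 and TM7SF2 from -0.36 to 0.40, each highest without high 3.

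The median r between the genes, 0.842, was 0.913 within the high and 0.767 within the low group, 0.726 without high 3, 0.644 without high 1 and high 3, and 0.689 without the 2 sows farthest from the median of each pair's first gene. Leaving out 1 sow gave 0.726 to 0.868.

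Animals of the 2 groups share numbers in the labels, which do not say whether the numbers pair them. Deviations of same-numbered sows correlated from -0.455 to 0.168, which cannot decide it. With 1 sow of each group per number, a replicate block cannot change the differences, only their p values. The differences thus kept 5 of 17 above 0 and a median of -0.15. The block passed 0 probe sets and changed no call. The p of ELOVL6 was then 0.00848 unadjusted and 0.970 adjusted (limma). With 6 sows a group, the 95% interval extended from the difference by a median of 0.774 over the 17 genes and 0.328 over all genes, which limits what could be detected.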
